A study of Mus musculus and Homo sapiens with 32 samples.

Results

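The HEK293T peak list of bulk m6A-CT placed 1374 of its 32975 peaks on chromosome 19, which is 4.17% of the list (Wilson 95% interval 3.96 to 4.39). A peak belongs here if its row gives chromosome 19 on build hg19, and no measured value entered that choice. m6A-CT uses an antibody to bring a transposase to methylated RNA in permeable nuclei, where it cuts hybrids of RNA and cDNA, and a peak is a stretch where the caller found the library enriched. HEK293T is an established human embryonic kidney line that carries the large T antigen of SV40 and an abnormal number of many chromosomes. Of the 32 libraries in the series, 4 are human: 2 m6A-CT libraries with the Synaptic Systems antibody and 2 input libraries tagmented without antibody. All 4 were made from HEK293T at 100K nuclei, with no genotype or treatment difference between them. The human peaks come as 1 list filed under the first m6A-CT replicate, and whether both replicates were pooled is not given in the sources used here. No value per replicate, no input value and no depth stands in that list, so no test between samples was possible and every interval below covers counting error only. Peaks on one transcript share their source, so these intervals are too narrow for independent transcripts.

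N6-methyladenosine (m6A) is a methyl mark that the METTL3 and METTL14 complex writes onto RNA as it is made, mostly at adenosines in a short recurrent context. In messenger RNA it is known to gather near stop codons and in long internal exons, and it is read by proteins that change splicing, decay and translation. Chromosome 19 is the most gene-dense human chromosome. It also carries most of the large families of KRAB zinc finger genes, which encode DNA-binding repressors, in several clusters along both arms. The coding part of such a gene is mostly a single long last exon that holds the zinc finger repeats. Human gene positions on hg19 were not used here, so peaks are given by coordinate, and expression and the identity of the cells were not checked against marker genes.

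Chromosome 19 was among the chromosomes with most peaks for its size. It spanned 60 bins of 1 Mb from its first peak to its last, chr19:306196 to 59094550, and held 22.9 peaks per Mb of that span (exact Poisson 95% interval 21.7 to 24.1). The other chromosomes together held 10.7 peaks per Mb (10.6 to 10.8), which made a ratio of 2.13 (2.02 to 2.25). They include Y, with 14 peaks over 51 bins, and the mitochondrial genome. Among the 23 chromosomes compared by rank (the autosomes and X), chromosome 19 ranked 2 behind chromosome 17, which had 26.4 peaks per Mb (25.3 to 27.5). Chromosome 22, at 22.9 (21.3 to 24.5), could not be told apart from it, while chromosome 16 had 15.99 (15.2 to 16.8). Against chromosomes 16, 17 and 22 pooled, which are also rich in genes, the ratio was 1.08. Bins without a peak count in these densities. Peaks lay in 55 of 60 bins on chromosome 19, 63 of 91 on 16, 75 of 82 on 17 and 35 of 36 on 22. Empty bins thus lower the density of chromosome 16 most among these. Because its peaks were long, chromosome 19 led in the length they covered, with 12.3 kb per Mb, next to 12.2 on chromosome 17, 11.7 on chromosome 22 and 4.81 over all others. The rows carry running numbers, and on chromosome 19 these go from 33274 to 36315, so 1374 of 3042 numbers (45.2%) are listed. That share was 46.0% over the whole list and ran from 43.0% to 48.9% over the other chromosomes compared.

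**Figure D1:**
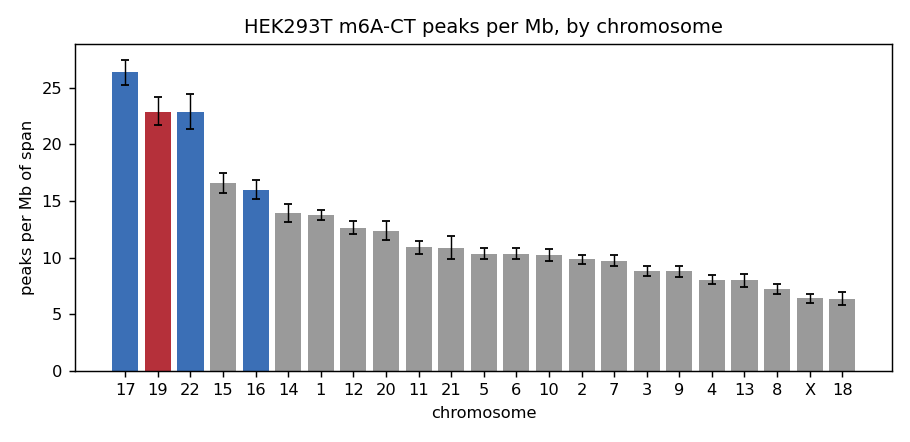
HEK293T m6A-CT peaks per Mb for the autosomes and X, counted over the 1 Mb bins from the first to the last peak of each chromosome; bars start at 0 and lines are exact Poisson 95% intervals. Chromosome 19 (red) stands at 22.9, below chromosome 17 and level with chromosome 22 (both blue, as is chromosome 16).

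Peaks were spread unevenly along the chromosome. At least 30 peaks lay in 19 of its 60 bins (31.7%, Wilson 95% interval 21.3 to 44.2), against 10.2% of the 3005 bins of all chromosomes, Y included. The same share was 43.9% on chromosome 17, 27.8% on chromosome 22 and 23.1% on chromosome 16. The bin from 1 to 2 Mb led with 72 peaks (exact Poisson 95% interval 56.3 to 90.7). It was followed by the bins that start at 11 Mb (54 peaks), 2 and 10 Mb (52 peaks each) and 58 Mb (51 peaks). These 5 bins held 281 peaks, or 20.5% of the chromosome. None of them was among the 10 fullest bins of the genome, of which the fullest, on X, had 104. Inside the span 5 bins were empty, those that start at 25, 26, 28, 29 and 43 Mb. The widest stretch with no peak, 3255801 bp, ended at chr19:27731955, and it lies over the centromere as hg19 places it.

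The arms on either side of that stretch differed. The bins below 25 Mb held 748 peaks at 29.9 per Mb (27.8 to 32.1), and those from 27 Mb on held 626 at 18.97 per Mb (17.5 to 20.5). Peaks of the less dense long arm were longer, with medians of 357 bp against 290.5 bp, and 16.9% of them (14.2 to 20.1) against 10.8% (8.80 to 13.3) reached 1000 bp. Their median fold enrichment was 4.662 against 3.602. The zinc finger clusters described below lie on both arms. Of the 106 long-arm peaks of at least 1000 bp, 6, 11 and 25 lay in the clusters there. Of the 81 on the short arm, 11 lay in the cluster from 20 to 24 Mb. The arms were not compared without the clusters. The fold is the authors' value at the summit over a background that is not stated, and it serves here to compare peaks within this list.

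**Figure D2:**
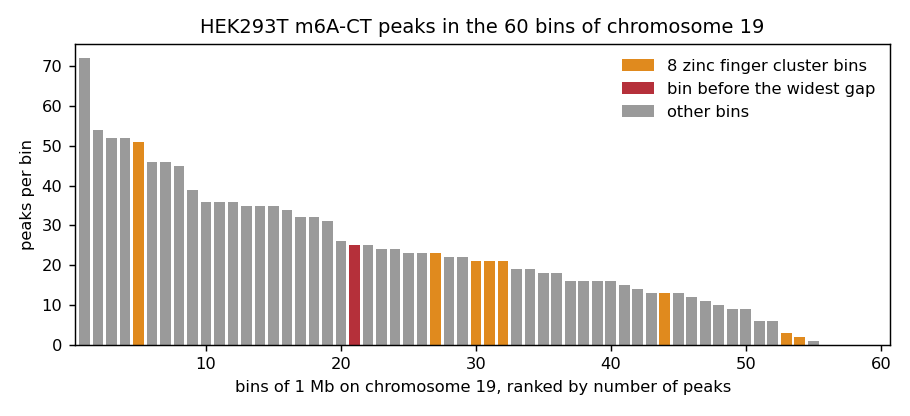
Number of HEK293T peaks in each of the 60 bins of 1 Mb on chromosome 19, ranked from fullest to emptiest; bars start at 0. Of the 8 zinc finger cluster bins (orange), 1 is among the 5 fullest with 51 peaks, and those with 3 and 2 peaks lie near the empty end. The bin before the widest gap (red) had 25.

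In length chromosome 19 stood first. Its median peak was 315.5 bp (quartiles 197 and 619), the highest of the 23 chromosomes, and the medians of the other 22 ran from 252 to 283 bp. Of its peaks, 58.2% (55.5 to 60.7) were longer than 266 bp, the median elsewhere, where 50 percent would mean no shift. Both ends of the length scale were fuller. Peaks of at least 1000 bp numbered 187, or 13.6% (11.9 to 15.5), against 8.98% of the whole list and 7.20% to 11.5% on the other chromosomes compared. Peaks of exactly 100 bp, the shortest length listed, numbered 58, or 4.22% (3.28 to 5.42), against 2.19% of the whole list and 1.22% to 3.23% on the others. Chromosome 19 had the highest share of both, but for 100-bp peaks this rank was lost when 1 bin was left out. Without the bin from 24 to 25 Mb its share was 3.19% (2.37 to 4.27), just under the 3.23% of chromosome 9 but above the 2.19% of the whole list. A second stretch with as many 100-bp peaks as that bin is described below. The middle was thinner, with 34.9% of peaks above 200 and up to 400 bp against 41.5% elsewhere, and 21.5% above 100 and up to 200 bp against 26.6%.

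**Figure D3:**
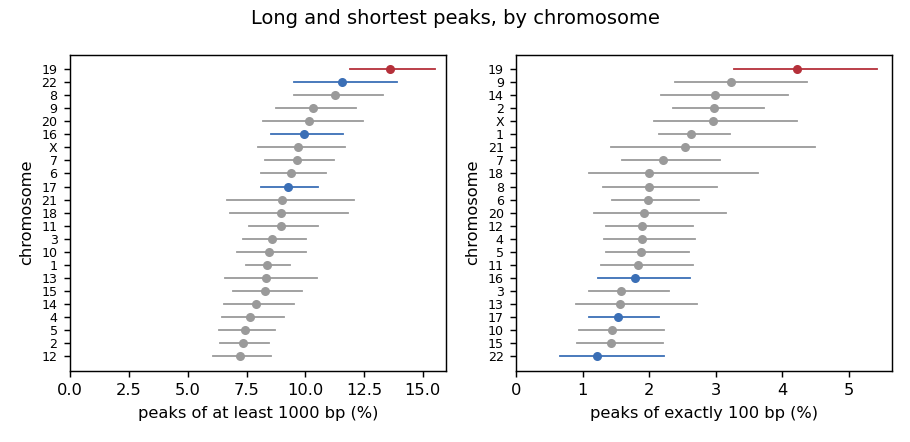
Share of HEK293T peaks of at least 1000 bp (left) and of exactly 100 bp (right) on each autosome and X, in percent, with Wilson 95% intervals as lines. Chromosome 19 (red) is highest in both, at 13.6% and 4.22%, the latter being 3.19% without the bin from 24 to 25 Mb; chromosomes 16, 17 and 22 are blue.

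The -log10 q is the caller's adjusted p-value on a log scale, at least 10 for every peak listed. The longest peak of the chromosome, chr19:47503532-47507745, had 4214 bp, 6.35-fold enrichment and a -log10 q of 140.5, and it ranked 91 by length in the whole list. Close to it lay the third, chr19:47421748-47425693, with 3946 bp, 6.33-fold and a -log10 q of 160.9. The second, chr19:12687879-12692053, with 4175 bp and 6.14-fold, had a -log10 q of only 23.5. The next 3 were chr19:31767103-31770581 (3479 bp, 4.15-fold), the single peak of its bin, chr19:57867506-57870792 (3287 bp, 3.99-fold) and chr19:37238243-37241504 (3262 bp, 6.14-fold). Their -log10 q stood at 21.9, 18.9 and 26.0, so 4 of the 6 longest peaks lay below 30 on that scale. No peak of chromosome 19 was among the 10 longest of the genome, 2 were among the longest 100, and 63 were among the longest 1000 (6.3%, 4.95 to 7.98).

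Fold enrichment was low on chromosome 19 by the standard of all other chromosomes, though not by that of gene-rich ones. The median was 4.10, rank 21 of 23, against 4.69 elsewhere, and chromosome 22 (3.90) and chromosome 17 were lower still. Of the peaks, 41.3% (38.76 to 43.96) exceeded the median fold elsewhere. Set against chromosomes 16, 17 and 22 alone the share was 51.6%, on the other side of 50 percent. At least 10-fold was reached by 66 peaks, 4.80% (3.79 to 6.07), against 5.47% of the whole list. The -log10 q had a median of 20.9 here and 20.0 elsewhere, and 51.4% of peaks (48.7 to 54.0) exceeded the latter, an interval that includes 50. A -log10 q under 20 was found for 667 peaks (48.5%, 45.9 to 51.2), against 49.8% of the whole list. The upper end was fuller: 112 peaks, 8.15% (6.82 to 9.72), had a -log10 q of at least 100, against 5.96% of the whole list. Among the 23 chromosomes compared by rank, only X had a higher share, 9.07%. Nearest to the threshold lay chr19:50432496-50432713 at 10.03, chr19:33461114-33461900 at 10.08 and chr19:11200194-11200293 at 10.08, with folds of 2.38, 3.55 and 4.09.

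The zinc finger clusters were looked at as 8 bins: 20 to 24 Mb (band 19p12, 4 bins), 37 to 38 Mb (19q13.12), 53 to 54 Mb (19q13.41) and 57 to 59 Mb (19q13.43, 2 bins). These bins were chosen from general knowledge of where such genes lie densest on hg19, with no annotation, and other genes lie in them too. Band names below are labels for these bins only and were not checked against band limits. The bin from 24 Mb, next to the 19p12 bins, counts among the other bins, with 25 peaks and a median length of 100 bp. Whether zinc finger genes reach into it was not checked. The 8 bins held 155 peaks, 11.3% of the chromosome. Their peaks were longer, with a median of 613 bp against 298 bp in the 52 other bins, and 74.2% (66.8 to 80.4) exceeded the latter. Without the bin from 24 Mb among the others, that share was 73.5%. At least 1000 bp was reached by 53 cluster peaks, 34.2% (27.2 to 42.0), against 134 in the other bins, 11.0% (9.36 to 12.9). Their fold was higher too: the median was 6.24 against 3.85, and 90.3% of cluster peaks (84.6 to 94.0) lay above the latter. Their -log10 q was lower, with medians of 16.8 and 21.4, and 38.1% (30.8 to 45.9) were above the latter. Only 4 cluster peaks reached a -log10 q of 100 (2.58%, 1.01 to 6.45), against 108 of the other bins (8.86%, 7.39 to 10.6). The list keeps only peaks with a -log10 q of at least 10, and it holds no coverage. Whether that cut limits the cluster bins to peaks of high fold was not tested.

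**Figure D4:**
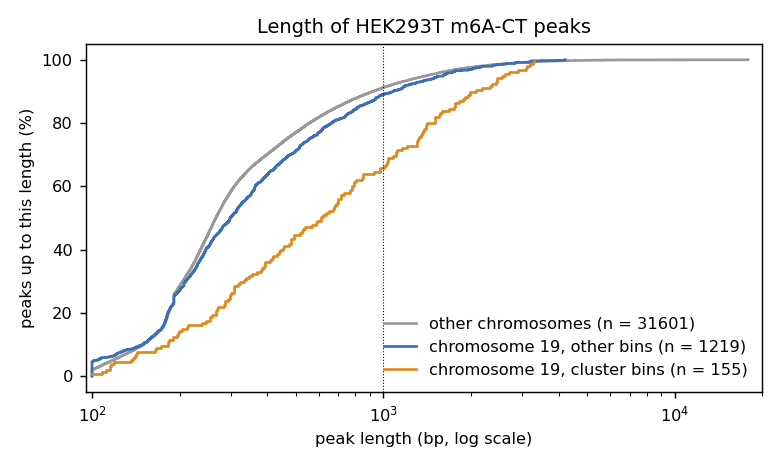
Cumulative share of HEK293T peaks (percent) up to a given length (bp, log scale) for the 8 zinc finger cluster bins of chromosome 19, its other bins and all other chromosomes; the dotted line marks 1000 bp. The cluster curve runs far to the right, with a median of 613 bp against 298 and 266 bp.

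Within the classes of length above 100 bp the direction was the same, by unequal amounts. At exactly 100 bp the cluster bins had only 1 peak, at 4.10-fold, against a median of 6.41 for 57 peaks of the other bins. Among peaks above 200 and up to 400 bp the median fold was 6.56 in the cluster bins (34 peaks) and 3.36 in the other bins (446 peaks), with median -log10 q of 14.5 and 21.4. Among peaks of at least 1000 bp these were 6.14 and 4.97 for the fold, and 24.9 and 38.0 for -log10 q, so the difference in fold was smaller; this class has no upper end. Part of the cluster peaks shared the exact same values. In the whole list the most frequent folds are whole multiples of 0.291. On chromosome 19, 102 peaks had such a fold, over 25 multiples, and all peaks of 1 multiple had the same -log10 q. Multiple 22, a fold of 6.41 with a -log10 q of 10.9, was the most frequent on chromosome 19, with 20 peaks, followed by multiple 23 (6.70-fold, 11.8) with 12. Folds within 1e-04 of a multiple made up 8.49% of the whole list and 7.42% (6.15 to 8.93) of chromosome 19. They were 18.1% (12.8 to 24.9) of the cluster peaks and 6.07% (4.86 to 7.55) of the peaks in other bins. What sets the step was not tested, since the background values of the caller are not in the list.

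The clusters differed among themselves in density. Over all 8 bins there were 19.4 peaks per Mb (16.4 to 22.7) against 23.4 (22.1 to 24.8) in the other bins, a ratio of 0.83 (0.70 to 0.98). The 19p12 bins were sparse, with 39 peaks at 9.75 per Mb (6.93 to 13.3), and without them the ratio was 1.24. The 19q13.43 bins were dense, with 74 peaks at 37.0 per Mb (29.1 to 46.5), and without them it was 0.58. The bins 37 to 38 Mb and 53 to 54 Mb had 21 peaks each (13.0 to 32.1 per Mb). Peaks covered 32.8 kb per Mb in 19q13.43 and 26.6 kb in 19q13.41, against 11.5 kb over the other bins. All 4 clusters had a median length above the 298 bp of the other bins, from 321 bp in 19p12 through 443 bp in 19q13.12 and 662 bp in 19q13.43 to 1104 bp in 19q13.41. Their median folds, 6.87, 6.88, 5.35 and 6.99 for 19p12, 19q13.12, 19q13.43 and 19q13.41, were all above 3.85. The lowest of these was that of 19q13.43, and every cluster peak at or under a fold of 3.85 lay there. The median length in 19p12 was close to that of the other bins.

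Among the bins labelled 19p12 most peaks sat in the bin from 21 to 22 Mb, which had 21. The bins from 20 and 22 Mb had 3 and 2, and the bin from 23 Mb had 13. Around chr19:21299557-21306997 lay 7 peaks with no more than 1000 bp between neighbours, which covered 64.3% of 7441 bp. The first of them, chr19:21299557-21302176, measured 2620 bp at 10.6-fold and a -log10 q of 133.8, and the other 6 had 255 to 593 bp and folds from 6.09 to 7.87. The longest peak of these 4 bins was chr19:23541294-23544482 (3189 bp, 7.54-fold). Their highest fold, 15.8, belonged to chr19:23836077-23837191 (1115 bp).

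In the bin labelled 19q13.41, 11 of 21 peaks were at least 1000 bp long. The longest were chr19:53570404-53573517 (3114 bp, 8.89-fold, -log10 q 28.4) and chr19:53854070-53856617 (2548 bp, 8.88-fold, 31.6), and the highest fold was 13.412 at chr19:53383223-53385167 (1945 bp). No peak of this bin had a -log10 q above 41.2. In the bin labelled 19q13.12 the longest peak was chr19:37238243-37241504, given above. The highest fold in that bin was 12.8 at chr19:37117341-37118369 (1029 bp). In the bins labelled 19q13.43 the longest peaks were chr19:57867506-57870792 and chr19:58983001-58986084 (3084 bp, 3.61-fold, -log10 q 25.0). A short peak of 184 bp there, chr19:58962951-58963134, had 9.63-fold and a -log10 q of 926.1, far above the rest of the cluster bins, where the next highest was 146.8.

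With 4 further bins where zinc finger genes mix with others (those that start at 9, 12, 44 and 52 Mb), the cluster set had 228 peaks with a median of 577.5 bp and 6.41-fold. The added bins were not alike in length, with medians of 738 and 645 bp in those from 9 and 52 Mb, and of 317 and 273 bp in those from 12 and 44 Mb. The remaining 1146 peaks of the chromosome then had medians of 297 bp and 3.70-fold. Without these 12 bins, 55.1% of the chromosome's peaks were still longer than the median elsewhere, 9.60% (8.03 to 11.4) reached 1000 bp, and 33.4% exceeded the median fold elsewhere. Peaks of 1000 bp outside the 12 bins thus stood near the 8.98% of the whole list, while the 12 bins had 33.8% (27.9 to 40.1).

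**Figure D5:**
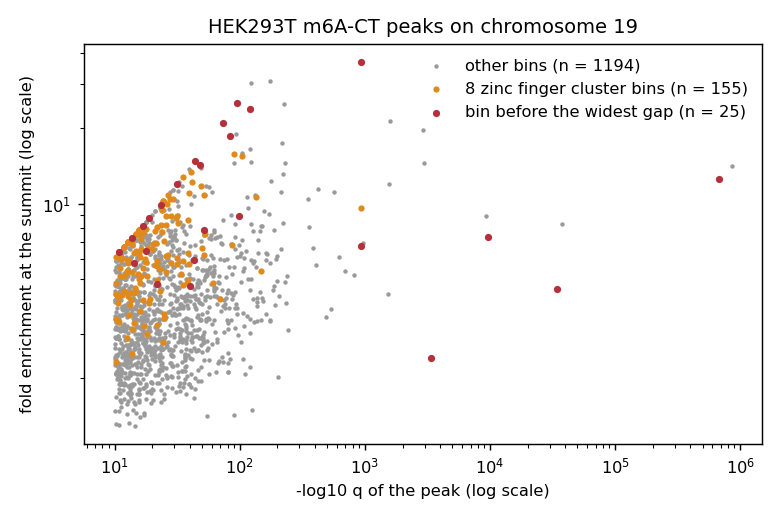
Fold enrichment at the summit against -log10 q (both log scales) for the 1374 peaks of chromosome 19. Cluster peaks (orange) gather at high fold and low -log10 q, with medians of 6.24 and 16.8; the bin before the widest gap (red) holds the highest fold, 36.8, and the second highest -log10 q of the chromosome.

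The bin from 24 to 25 Mb, the last before the widest gap, was rich in 100-bp peaks. It held 25 peaks between chr19:24035110 and 24476153, of which 15 were exactly 100 bp long (60.0%, 40.7 to 76.6). Its median fold of 8.16 was the second highest among the 48 bins with at least 10 peaks. Its last peak, chr19:24476054-24476153, had the highest fold of the chromosome, 36.8 with a -log10 q of 936.9, and ranked 19 in the whole list. Other 100-bp peaks of the bin were at 25.4-fold (chr19:24417477-24417576), 23.9-fold (chr19:24098564-24098663) and 21.0-fold (chr19:24454387-24454486). Around chr19:24183577-24186072 lay 4 peaks of 149 to 1025 bp with -log10 q of 34530, 3408, 682017 and 9707. The one of 682017, chr19:24184533-24185557, was the third highest by -log10 q of all 32975 peaks, though only 12.5-fold.

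A second such stretch lay on the long arm. The highest -log10 q of the whole list, 853768, was that of chr19:36066454-36066804, a peak of 351 bp at 14.1-fold. Around it, from chr19:35550052 to 36612058, lay 15 peaks of exactly 100 bp, with folds from 5.84 to 30.3 (median 7.39), the highest at chr19:35825947-35826046. Together with the bin from 24 Mb this made 30 of the 58 peaks of that length on the chromosome (51.7%). The whole list has 12 peaks with a -log10 q of at least 100000, and 2 of them are these. Among the other peaks of chromosome 19 that started within 500 kb of either, 28 of 63 were exactly 100 bp long (44.4%, 32.8 to 56.7), against 30 of 1309 farther away (2.29%, 1.61 to 3.25). On the other chromosomes these shares were 33 of 203 (16.3%, 11.8 to 21.95) near the 10 such peaks there and 2.01% (1.86 to 2.17) farther away. A few places carried the former share: 11, 9 and 8 of these peaks lay near 3 of the 10, at chr1:120543845, chr1:145277276 and chr16:72821533, and none lay near 4 of them. Away from such peaks, chromosome 19 was thus close to the rest of the genome in this measure. This comparison was made after the bin from 24 Mb had been seen. What the 100-bp peaks there are was not tested, nor was what the 12 peaks of extreme -log10 q are.

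In all, 12 peaks of chromosome 19 had a -log10 q of at least 1000, out of 196 in the whole list (6.12%). The chromosome held 4.17% of all peaks. Of the 12, 10 were under 300 bp. Such lengths are common, since the median was 315.5 bp over the chromosome and 266 bp elsewhere. The share of all peaks under 300 bp was not counted. Outside both stretches the highest -log10 q was that of chr19:12811840-12812015 (176 bp, 8.29-fold, 37727), then chr19:7598909-7599086 (178 bp, 8.95-fold, 9348) and chr19:2546707-2546884 (178 bp, 14.6-fold, 2985). Of the 6 highest folds of the chromosome 5 were 100-bp peaks, among them chr19:11565519-11565618 (30.8-fold) and chr19:12551463-12551562 (25.1-fold). The sixth was chr19:1775370-1775548 (179 bp, 24.1-fold).

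The median distance from one peak to the next was 4692 bp, wider than the 4143 bp over the other chromosomes and the 2917, 3402 and 3168 bp on chromosomes 16, 17 and 22. Yet 28.9% of neighbours (26.6 to 31.4) were no more than 1000 bp apart, against 24.6% (24.1 to 25.1) on the other chromosomes. On chromosomes 16, 17 and 22 that share was 30.6%, 28.3% and 29.9%. In the cluster bins it was 37.1% (29.8 to 45.0) and in the other bins of chromosome 19 28.2% (25.7 to 30.8), while the median distances there were 4989 and 4559 bp. No peaks overlapped. The largest group at that distance had 9 peaks, chr19:10789728-10796156, with folds of only 1.303 to 2.96 but a median -log10 q of 33.4. It lay in the fullest window of 20 kb, chr19:10780001-10800000, with 16 peaks and a median fold of 1.93. The next windows, chr19:42860001-42880000 and chr19:18960001-18980000, had 13 and 11 peaks with median folds of 5.59 and 2.37. Of the 639 windows with a peak, 337 had 1. Over the 48 bins with at least 10 peaks, the number of peaks ran with the median -log10 q (Spearman's rho 0.52) and against the median fold (-0.35), and hardly with the median length (-0.09). These bins share 1 library set and depth, so the values are a description.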

How the data were processed

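Bulk m6A-CT of HEK293T was deposited as 1 list of peaks on hg19, and per the submitters' processing notes Trim Galore, STAR 2.7.2 and MACS2 served for trimming, alignment and peak calling; settings, background and pooling are not given in the sources used here. In the deposited list the score equals the -log10 q times 10 without its decimals in 99.8% of rows, the fold ratio is that at the summit, and -log10 p and -log10 q are the caller's, with -log10 q at least 10 throughout; other deposited columns hold positions, such as the summit's offset, and no measurement. The 8 mouse files were not used here, and depth is unknown.

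Coordinates were written 1-based. A peak belongs to the 1 Mb bin of its start, and bins run from the first to the last peak of a chromosome. Shares carry Wilson and counts exact Poisson 95% intervals, computed with Python 3.11.15, pandas 2.3.3 and scipy 1.17.1; the functions were tested on simulated data. No test was made, because 1 list has no replicate. The members, bins and measures were chosen with earlier results of these data known. Peaks named are the 6 highest by fold, by -log10 q and by length, the 5 fullest and 5 emptiest bins, the cluster bins, the 3 fullest windows of 20 kb and the 3 peaks nearest the threshold; the highest and longest of each cluster, other peaks of the strongest stretches and the comparison by distance were chosen after their values were seen.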

Additional observations from a re-analysis of the deposited data

How the results depend on the processing

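Of 75 recomputed values for 9 results, 51 stayed inside the 95% interval of the reported value. With chromosomes 16, 17 and 22 as the others, the share above the median fold turned to 51.6%, the density ratio was 1.08 and the share above the median -log10 q fell under 50 percent, to 48.5%. Without the 4 bins of 20 to 24 Mb the density ratio of the cluster bins turned to 1.24; without the 2 bins of 57 to 59 Mb it was 0.58, and all of the remaining 81 cluster peaks (100%) were above the median fold of the other bins. Merging peaks no more than 1000 bp apart gave 3.94% of peaks, a density ratio of 2.01, 60.8% of peaks longer than the median elsewhere, and 81.8% for cluster peaks. Over bins with a peak only, the density ratio was 1.73. With a -log10 q of at least 20, 56.0% of peaks exceeded the median -log10 q elsewhere, the cluster density ratio was 0.64, and cluster peaks were longer in 87.3% and above the median -log10 q in 23.8%. Among peaks of 200 to 400 bp, the shares above the median fold and -log10 q were 38.0% and 48.3% for the chromosome, the latter again under 50 percent, and 97.1% and 11.8% for cluster peaks. Against the other bins of the long arm alone, 81.3% of cluster peaks were above the median fold. Here the long arm was taken from 28 Mb on, without the 9 peaks of the bin from 27 Mb. Chosen after seeing the data, leaving out the 8 cluster bins gave 55.5% longer and 36.7% above the median fold, and leaving out all 12 gave 55.1% and 33.4%. The cause of these shifts was not tested.

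No paired analysis was possible because the human peaks come as 1 list without values per replicate. For the same reason no replicate was left out. Depth is unknown, and a stretch without a peak gives no upper limit on methylation there.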
